A study of Mus musculus with 2 samples.

Results

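The cells described here were the less mitotic part of cycling cluster 3 in mouse colonic epithelium. They were cells that the authors' cell table puts in cluster 3 and in which Aspm, Ccnb1, Cdc20, Cenpa, Hmmr, Nusap1, Plk1 and Ube2c, 8 genes of mitosis, held less than 0.1% of the cell's UMIs (unique molecular identifiers, counted RNA molecules). The cells were chosen by their cluster number in the authors' table and by these measured mitotic UMIs. The rule gave 519 cells of the Mettl14 WT library and 550 of the Mettl14 KO library, 1069 of 7863 cells in all. They are called member cells below, and the 739 other cells of cluster 3, 399 WT and 340 KO, are called its mitotic cells. Both libraries came from live, EpCAM-sorted primary epithelial cells of the colon of C57BL/6 mice, profiled by 10x Genomics 3' single-cell RNA sequencing. They differ in the label of the genotype alone, Mettl14_WT or Mettl14_KO, and the series text places the profiles at 2 weeks without naming the starting point. Mettl14 encodes the RNA-binding partner of Mettl3 in the enzyme that writes m6A, a methyl mark on RNA. The labels name no promoter or Cre line behind the deletion, no deleted exon, no age and no number of animals per library. With 1 library for each genotype there is no replicate check. Each difference compares these libraries only, and every interval covers counting error alone.

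In the colonic crypt, stem cells at the base give rise to rapidly dividing progenitors, which then become absorptive colonocytes or secretory cells, mostly goblet cells. Before division a cell passes G1, in which replication origins are licensed by the MCM helicase, and S phase, in which DNA is copied and new histones are made. Active Notch signalling and its target Hes1 favour the absorptive fate, and Atoh1 starts the secretory one.

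The label was checked against its markers first. Mcm5, a helicase subunit, stood at 75.6 CPM (UMIs scaled to a total of 1000000 per library) in WT member cells and 64.0 in KO member cells, and it lay between 13.3 and 53.9 CPM in clusters 0, 1, 2 and 4. For Pcna, the sliding clamp of DNA polymerase, the levels were 171 and 96.8 CPM, against 27.1 to 89.1 CPM in those clusters. Hist1h1b, a linker histone gene, had 137 and 195 CPM in member cells and at most 11.3 CPM in those clusters. Their mitotic neighbours had less Mcm5 (38.1 and 32.2 CPM) and less Pcna (63.4 and 41.7 CPM). Hist1h1b set the mitotic cells apart less, above all in WT, with 127 and 144 CPM in them. These genes are not among the 8 of the mitotic cutoff, but they may have entered the authors' clustering, so their levels are given as a description of the chosen cells. Markers of enteroendocrine, tuft and stromal cells were low, as given further below.

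The word non-mitotic holds only relative to the cutoff. The median share of UMIs in the 8 mitotic genes was 0.0402% in WT and 0.0425% in KO member cells, and only 19 WT cells (3.66%) and 32 KO cells (5.82%) held none of these UMIs. In the other clusters the median cell held none. The highest shares inside the cutoff were 0.0995% and 0.0986%, and the lowest outside were 0.101% and 0.1005%. There were 26 WT and 36 KO cells from 0.09% up to the cutoff, and 24 and 32 cells from the cutoff up to 0.11%, so the cutoff divides a continuous range. Mki67, a gene of cycling cells outside G0, and Top2a, a topoisomerase of late S phase to mitosis, were also present in member cells (229.9 and 304 CPM in WT), below the mitotic cells (462 and 513 CPM). Member cells are therefore described as cycling cells with few mitotic transcripts, and no phase is assigned to a cell.

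**Figure D1:**
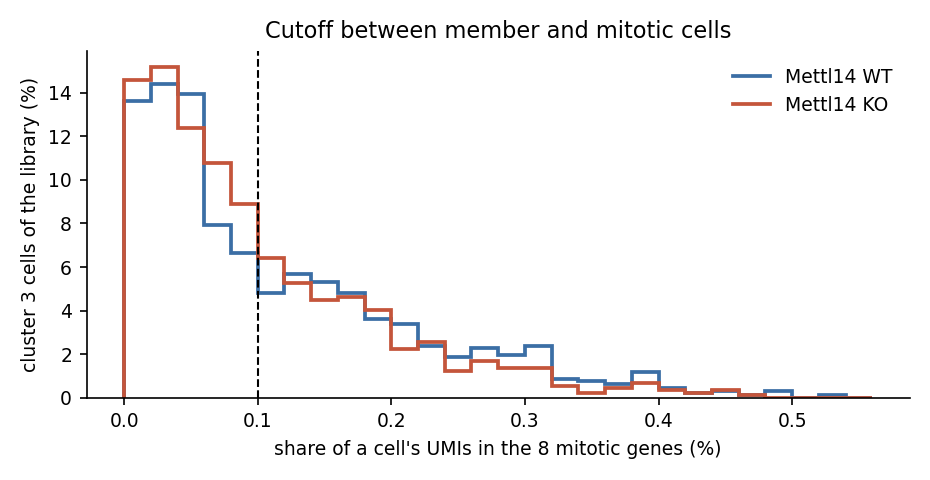
Share of each cluster 3 cell's UMIs in the 8 mitotic genes (x axis, %) against the percentage of the library's cluster 3 cells (y axis), in bins of 0.02%, for Mettl14 WT (blue) and Mettl14 KO (red); the dashed line is the 0.1% cutoff. The distributions run through the cutoff without a gap, with medians of 0.0803% and 0.0741% over all cluster 3 cells.

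Member cells made up 12.3% of WT cells (95% Clopper-Pearson interval 11.3 to 13.4) and 15.1% of KO cells (13.9 to 16.3). Within cluster 3 their share was 56.5% in WT (53.3 to 59.8) and 61.8% in KO (58.5 to 65.0). A cell's chance of passing the cutoff can depend on its depth, and depth differed between the libraries. WT member cells held a median of 15062 UMIs and 3780 genes, and KO member cells 10012 UMIs and 3072.5 genes. Their totals were 9663835 and 6282454 UMIs, and the median mitochondrial share was 11.5% and 11.3%. The libraries shared 2 cell barcodes, none of them in member cells. Both libraries mixed cells of both sexes. Among member cells, 214 WT and 234 KO cells had at least 3 Xist UMIs and none of 4 Y-linked genes (Xist alone below). A further 170 and 168 had Y-linked UMIs and no Xist (Y-linked alone below), and 79 and 47 had both.

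Mettl14 itself gave 118 UMIs in WT and 40 in KO member cells, which is 12.2 and 6.37 CPM and a log2 ratio of KO over WT of -0.94 (interval -1.49 to -0.41). Transcript was thus lower and still detected. Since the deleted exons are not named and the assay reads the 3' end, the remaining UMIs cannot tell how much full-length transcript was left. Mettl3, the catalytic partner, was also lower, with 15.1 and 7.16 CPM (-1.08, -1.59 to -0.59).

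Across the genes, UMIs were summed over the member cells of each library and a gene was counted as measured with at least 50 UMIs over both. Of 10436 measured genes, 1836 (17.6%) had a CPM in KO that was 1.5 times the WT value or more, called higher below. The genes called lower, with WT at 1.5 times KO or more, numbered 1215 (11.6%). All measured genes had a median log2 ratio of 0.03. With mitochondrial, ribosomal-protein and haemoglobin genes left out of both the scaling and the counted genes, there were 1550 higher and 1539 lower. These shares are the background against which the count of each gene list is read.

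The S phase genes came first. The promoters of replication genes are known for sites of the E2F factors, which switch them on as cells enter S phase, and some promoter stretches are shown because the genes behind them differed in opposite directions. Each is 150 bases, from RefSeq's GRCm38.p6 promoter windows, ending at the base before the annotated start and written 5' to 3' on the gene's strand. Capitals mark matches to TTTGGCGC, TTTCGCGC, TTTCCCGC or TTTGCCGC on either strand, which may overlap. Mcm6 (chr1:128359706-128359855, minus strand), Cdca7 (chr2:72476069-72476218, plus strand) and Hells (chr19:38930840-38930989, plus strand) were lower in the KO library. Tk1 (chr11:117826015-117826164, minus strand) and Dbf4 (chr5:8422717-8422866, minus strand) were higher.
Mcm6: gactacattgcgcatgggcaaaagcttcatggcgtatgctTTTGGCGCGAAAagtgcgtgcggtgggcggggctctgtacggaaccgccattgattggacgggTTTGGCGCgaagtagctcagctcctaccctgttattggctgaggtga
Cdca7: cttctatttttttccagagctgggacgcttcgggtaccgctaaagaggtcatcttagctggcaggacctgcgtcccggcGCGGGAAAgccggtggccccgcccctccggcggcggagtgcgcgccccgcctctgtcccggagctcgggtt
Hells: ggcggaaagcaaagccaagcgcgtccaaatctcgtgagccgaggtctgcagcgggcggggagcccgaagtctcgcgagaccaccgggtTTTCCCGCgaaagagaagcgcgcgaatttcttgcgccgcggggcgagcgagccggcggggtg
Tk1: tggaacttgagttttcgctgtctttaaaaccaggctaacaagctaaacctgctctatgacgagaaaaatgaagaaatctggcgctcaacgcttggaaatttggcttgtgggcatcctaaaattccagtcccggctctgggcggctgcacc
Dbf4: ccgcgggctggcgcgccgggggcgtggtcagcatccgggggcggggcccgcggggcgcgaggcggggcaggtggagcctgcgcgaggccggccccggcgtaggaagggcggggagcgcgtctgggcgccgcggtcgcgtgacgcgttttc
The Mcm6 stretch held 3 matches, Cdca7 and Hells 1 each, and Tk1 and Dbf4 none. Not every lower gene had a match: the windows of Pcna and Rpa3, also lower in the KO library, held none. Over the windows of 300 bases (250 before the start to 50 after it), 744 of 32851 windows held a match (2.26%), as did 704 of 27025 genes (2.61%). Of the 85 S phase genes listed here, 68 had a window, and 23 of them held a match (33.8%). Among those with a window a match was found for 8 of 13 genes that were lower in KO, 14 of 48 that were neither and 1 of 7 that were higher. These are descriptions of letters in a window. A missing match says nothing about a factor.

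As a group, the 85 S phase genes had more lower than higher members. All 85 were measured, 7 were higher and 15 lower by this rule, beside 17.6% and 11.6% of all genes, and 55 lay below 0. Their median log2 ratio was -0.26, beside 0.03 for all genes. Summed, they held 6305 CPM in WT and 5821 CPM in KO (-0.12, -0.13 to -0.10). The difference was not the same in cells grouped by their Xist and Y-linked UMIs. Cells of each sex come from different animals, so sex and animal cannot be told apart here. In member cells with Xist alone the median was -0.27 and the summed ratio -0.17 (-0.19 to -0.14), while in cells with Y-linked UMIs alone they were 0.03 and -0.005 (-0.04 to 0.03). Which genes lay on which side was clearer than the sum, and the genes are therefore given by their roles.

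Of the 19 genes of origin licensing, 1 was higher (5.26%) and 2 were lower (10.5%), beside 17.6% and 11.6% of all measured genes. They held 900 and 876 CPM in all (-0.04, -0.09 to 0.01). Dbf4, the activator of the Cdc7 kinase that fires licensed origins, stood at 45.8 CPM in WT and 107 in KO (1.22, 1.04 to 1.39). Mcm6, a helicase subunit, had 112 and 72.6 CPM (-0.63, -0.79 to -0.47). Gins3, part of the active helicase, had few UMIs, 75 and 23 (-1.08, -1.83 to -0.39). Mcm2, Mcm4 and Mcm5 were below 0 at -0.46, -0.43 and -0.24, short of 1.5-fold. Gins3 was the only one of the named genes here whose ratio in the mitotic cells, 0.33, lay on the other side of 0, and its difference of -1.41 between member and mitotic cells had an interval of -2.42 to -0.40.

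The replication fork list of 32 genes had 7 lower members and 1 higher, a median of -0.31, and 2192 and 1759 CPM in all. Pcna was lower at -0.82 (-0.96 to -0.68). Pclaf, a factor that binds PCNA, held 455 CPM in WT and 258 in KO (-0.82, -0.90 to -0.74). Rpa3, a subunit of the protein that coats single-stranded DNA, held 135 and 60.5 CPM (-1.15, -1.32 to -0.99). Dscc1, a clamp loader subunit, and Pole2, a subunit of the leading-strand polymerase, were at -1.07 and -0.92. Fen1 went the other way. This nuclease, which trims the flaps of lagging-strand fragments and acts with the PCNA clamp, held 45.3 CPM in WT and 115 in KO (1.34, 1.17 to 1.52). Genes of 1 step of replication thus did not share a direction.

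The 16 genes of nucleotide supply had 4 higher and 2 lower members and a summed ratio of 0.20 (0.16 to 0.23). Tk1, thymidine kinase, held 99.4 and 197 CPM (0.99, 0.86 to 1.11). Nme1, a nucleoside diphosphate kinase, held 432 and 704 CPM (0.70). Umps, of pyrimidine synthesis, was at 0.87 and Nme2 at 0.65. Impdh2, of guanine nucleotide synthesis, was lower with 211 and 138 CPM (-0.61), and Dck, a kinase that salvages deoxycytidine, was lower at -0.77. In the 18 genes of S phase chromatin and repair 4 were lower and 1 was higher, with a median of -0.44. Cdca7 and Hells, which form a nucleosome remodeller, were at -0.94 and -0.70. Uhrf1, which brings the maintenance DNA methyltransferase to new DNA, was at -0.64 and Brca2 of recombination at 0.75.

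Shares of cells gave the same order for the clearest genes once each cell was thinned to 3000 UMIs, which left out 13 WT and 8 KO cells. At that depth Pcna was seen in 35.2% of WT and 21.8% of KO member cells (unthinned 70.3% and 52.2%), beside 17.5% and 12.1% in cluster 4. For Tk1 the shares were 24.5% and 45.9% (unthinned 61.8% and 80.5%), beside 4.69% and 13.1% in cluster 4. Fen1 was seen in 13.2% and 31.0% (46.8% and 64.7%), beside 3.13% and 11.5%. Mki67 was seen in 48.0% and 64.9% (89.0% and 94.4%), beside 6.57% and 11.7%. Cells of cluster 4 had medians of 12288.5 and 9210 UMIs. In both libraries cluster 4 had more Car1, Car4, Aqp8 and Krt20, genes of colonocytes, than clusters 0, 1 and 2. The other colonocyte markers, Guca2a and Slc26a3, were highest there in KO only. In WT, Guca2a held 273 CPM in cluster 4 but 705 and 1304 CPM in clusters 1 and 2. Slc26a3 in WT held 6.63 CPM in cluster 4 and 9.31 CPM in cluster 0. The order between libraries for Pcna, Tk1, Fen1 and Mki67 was also seen in cluster 4.

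Histone genes divided. Of the 57 listed, 55 were in the matrix and 33 were measured, 4 higher and 10 lower, with a median of 0.02 and a summed ratio of -0.22 (-0.26 to -0.17). Hist1h1b was higher without reaching 1.5-fold (0.51, 0.40 to 0.63), and Hist1h3c held 17.6 and 34.5 CPM (0.97). Hist1h1c, another linker histone gene, held 112 and 36.3 CPM (-1.63, -1.84 to -1.42), and Hist1h2bc 197 and 72.6 CPM (-1.44). Hist1h2ap was at -0.64, Hist1h2ac at -0.80 and Hist1h3a at -1.66. Core histone genes are near-identical copies and many of their transcripts lack a poly(A) tail, so the split of reads among them is uncertain. Across cells at 3000 UMIs, S phase and histone UMIs had a Spearman rho of 0.13 in 506 WT cells and 0.48 in 542 KO cells. Cells of a library share its preparation and these correlations carry no test.

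**Figure D2:**
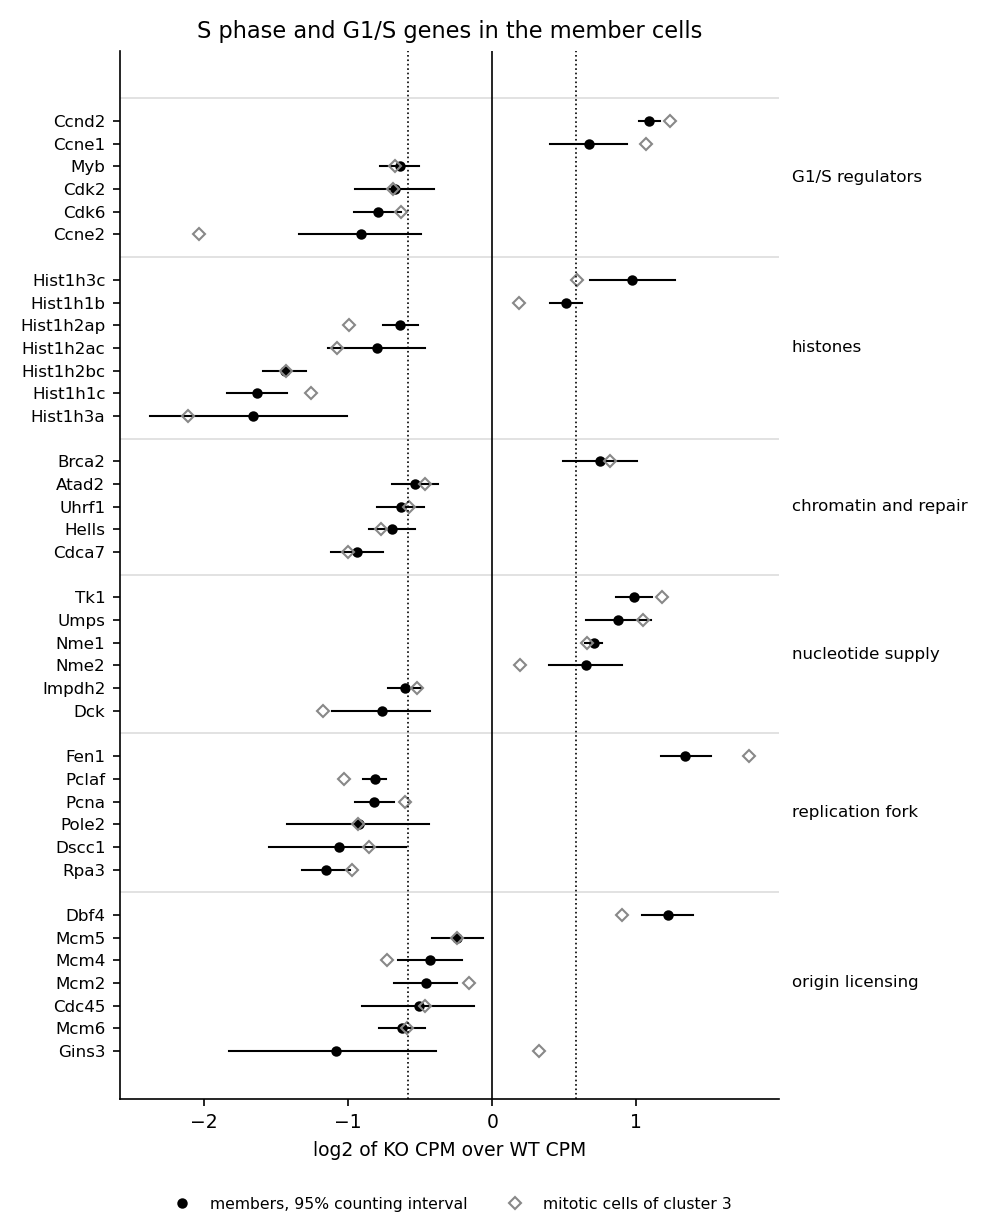
Log2 ratio of KO over WT CPM (x axis) for S phase, histone and G1/S genes in member cells (black points with 95% counting intervals) and in the mitotic cells of cluster 3 (open diamonds); dotted lines mark 1.5-fold. Fen1, Dbf4, Tk1 and Ccnd2 lie to the right and Pcna, Pclaf, Rpa3 and Cdca7 to the left in both sets of cells.

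Regulators of the G1/S step were also mixed, with 2 of 25 higher (8%) and 7 lower (28%), beside 17.6% and 11.6% of all measured genes. Ccnd2, a D-type cyclin that starts the pathway, held 266 CPM in WT and 567 in KO (1.09, 1.02 to 1.16). The E-type cyclins, which act at S phase entry, differed from each other, with Ccne1 at 23.8 and 37.9 CPM (0.67, 0.40 to 0.94) and Ccne2 at 19.1 and 10.2 CPM (-0.91, -1.34 to -0.49). Their kinase Cdk2 was at -0.68, Cdk6 at -0.80 and the transcription factor Myb, active in crypt progenitors, at -0.64. Cdkn1a, which encodes the inhibitor p21, held 26.0 and 95.3 CPM (1.88, 1.66 to 2.09), the highest ratio among 11 measured inhibitors, of which 4 were higher and 3 lower. Mki67 was higher at 0.80 while Top2a was at -0.31. Outside the 8 genes of the rule, 45 other G2 and M phase genes had 4 higher and 1 lower members and a median of 0.01. Cenpe, a kinetochore motor, and Birc5, survivin, were among the higher ones at 0.88 and 0.77.

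Leaning toward the lineages was scored per cell at 3000 UMIs as log2 of the UMIs of 48 secretory genes plus 1 over those of 61 absorptive genes plus 1. A cell was secretory-leaning at 1 or above and absorptive-leaning at -1 or below. The score is a range and does not name a cell type. In WT, 131 of 506 cells (25.9%, 22.1 to 29.9) were secretory-leaning, 102 (20.2%, 16.7 to 23.9) were neither and 273 (54.0%, 49.5 to 58.4) were absorptive-leaning. In KO, 102 of 542 cells (18.8%, 15.6 to 22.4) were secretory-leaning, 161 (29.7%, 25.9 to 33.7) were neither and 279 (51.5%, 47.2 to 55.8) were absorptive-leaning. The absorptive-leaning shares were within each other's intervals. Near the secretory cutoff, within 0.25, lay 19 WT and 41 KO cells, and near the absorptive one 53 and 71.

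The lower secretory-leaning share in KO was not seen without the most abundant genes of the 2 lineages, which were left out together. The part of each gene was not tested. Without the 3 most abundant genes of each lineage (Agr2, Spink4 and Tff3, and Krt19, Lypd8 and Klf5), the secretory-leaning shares were 9.09% in WT and 10.5% in KO. The mitotic cells had 23.4% and 20.9% secretory-leaning cells, and clusters 0 and 4 between 3.44% and 4.98%. In clusters 1 and 2, where Muc2 and Spink4 were highest, the range was 93.9% to 96.3%. Member cells thus held a minority with far more secretory RNA than the rest. A WT cell had a median of 6 secretory UMIs of 3000, an upper quartile of 40.8 and a 90th percentile of 77, and a KO cell 7, 21 and 65.9.

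**Figure D3:**
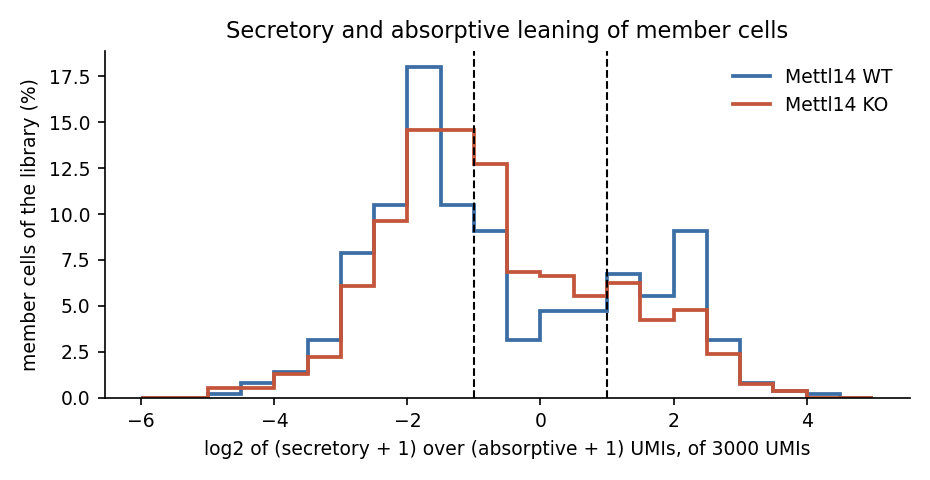
Leaning score of member cells at 3000 UMIs (x axis, log2) against the percentage of the library's member cells (y axis), in bins of 0.5, for Mettl14 WT (blue) and Mettl14 KO (red); dashed lines mark the cutoffs of -1 and 1. At or below -1 lie 54.0% of WT and 51.5% of KO cells. In WT a lower rise follows between 2 and 2.5, with 46 cells, where the KO library has 26 cells, and more KO than WT cells lie between the cutoffs.

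The secretory genes did not share a direction. The fate list had 15 measured genes of 19, with 2 higher (13.3%), 3 lower (20%) and a summed ratio of 0.17 (0.13 to 0.21). Over all measured genes 17.6% were higher and 11.6% lower. Atoh1, the master regulator, held 81.0 CPM in WT and 92.5 in KO (0.19, 0.03 to 0.35), but the ratio was -0.03 in cells with Y-linked UMIs alone and -0.14 with a mitotic cutoff of 0.05%. Thinned, Atoh1 was seen in 14.2% of WT and 17.0% of KO member cells (unthinned 35.5% and 30.5%), beside 5.01% and 5.83% in cluster 4. Spdef, which matures goblet cells below Atoh1, was at -0.30 (44.4 and 36.0 CPM). Sox4 and Klf4 were higher at 0.78 and 0.74, and Foxa2 and Creb3l4 lower at -0.70 and -1.38. Neurog3, the regulator of the enteroendocrine fate, and Insm1 below it had 39 and 31 UMIs in KO member cells and none in WT, under the 50 UMIs of a measured gene. The Neurog3 UMIs came from 6 of 550 KO cells (1.09%), beside 4 of 490 in cluster 4. Agr2, Car4, Neurog3 and Insm1 were singled out after their values were seen. The enteroendocrine marker list did not follow, with 23.6 and 11.5 CPM over 14 genes, from 228 and 72 UMIs. Its member Sct, secretin, alone gave 163 and 32 of these UMIs, so the lower sum rested mostly on Sct. The other of the 2 measured genes in that list was at 0.28.

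Goblet products differed gene by gene. Of 28 measured, 6 were higher (21.4%) and 8 lower (28.6%), beside 17.6% and 11.6% of all measured genes. Their median was -0.24, and the list held 8178 and 6400.4 CPM in all (-0.35, -0.37 to -0.34). Spink4, a trypsin inhibitor of goblet granules, held 2770.3 CPM in WT and 968 in KO (-1.52, -1.56 to -1.48). Tff3, the trefoil peptide that protects the mucosa, held 689.7 and 1815 CPM (1.40, 1.35 to 1.44). Muc2, the gel-forming mucin, held 706 and 379 CPM (-0.90, -0.97 to -0.83). Reg4 was lower with 291 and 118 CPM, Tspan13 with 150 and 66.5, and Ang4, a microbicidal ribonuclease, with 26.2 and 0.955. Ang4 was seen in 45 of 519 WT cells, and 10 cells held 73.9% of its WT UMIs. Agr2, a folding factor of mucins, held 2632 and 1863 CPM (-0.50). Zg16, a lectin of mature goblet cells, held 12.4 and 182 CPM (3.87), but 83.6% of its KO UMIs came from the 10 richest cells and its ratio in the mitotic cells was 1.40.

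Within the secretory-leaning cells the sum of goblet products is set by the score, so only their make-up is described. Goblet products there held 21211 CPM in WT and 22016 in KO. Spink4 stood at 7558 and 3601 CPM and Tff3 at 1730 and 6958 CPM (2.01), so Spink4 was the higher of the pair in WT and Tff3 in KO. The pair changed order in the same way in clusters 1 and 2. Spink4 held 15670.5 and 6156 CPM in cluster 1 and 14589 and 2978 CPM in cluster 2. Tff3 held 4482 and 19372 CPM in cluster 1 and 1859 and 13326 CPM in cluster 2. Of the member cells with Tff3 at 3000 UMIs, 87.4% in WT and 51.9% in KO also had Spink4. In the secretory-leaning cells Muc2 held 1880.5 and 1431 CPM, Zg16 20.1 and 723 CPM and Atoh1 199 and 285 CPM (0.52, 0.33 to 0.70). Guca2a, guanylin, which the lists count as absorptive and which mature goblet cells also make, held 501 and 74.8 CPM. In absorptive-leaning cells Tff3 was also higher in KO, at 17.0 and 75.6 CPM, and in cluster 4 the thinned share of cells with Tff3 was 13.3% in WT and 29.6% in KO, beside 33.0% and 43.7% in member cells (unthinned 46.4% and 63.3%). The part of free RNA in these Tff3 values was not tested.

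Among the leaning ranges of member cells, the secretory-leaning cells also showed the lowest summed S phase level, in both libraries and by more in KO. Their S phase genes summed to 5843 CPM in WT and 4408 CPM in KO (-0.41, -0.45 to -0.36), beside 6798 and 6327 CPM in absorptive-leaning cells (-0.10, -0.13 to -0.08) and 6030 and 6060.4 CPM in cells of neither kind (0.01, -0.03 to 0.04). At 3000 UMIs the median KO cell held 10.5 S phase UMIs when secretory-leaning and 19 when absorptive-leaning, and the median WT cell 17 and 18. The replication fork list followed with -0.66 in secretory-leaning and -0.29 in absorptive-leaning cells, and Pcna with -1.09 and -0.83. Other G2 and M phase genes gave 0.01 and 0.08 in the same cells. The S phase and leaning scores share no gene, but both are shares of 3000 UMIs, and no test of this difference was possible with 1 library per genotype. Genes of the leaning score themselves differed between the libraries, with Spink4 at -1.52 and Tff3 at 1.40 over member cells. The WT and KO cells of a range may therefore not be alike. A lower S phase sum in KO was not limited to secretory-leaning member cells. It was at -0.31, -0.35 and -0.32 in clusters 0, 1 and 2, and at 0.09 in cluster 4. The replication fork list was at -0.39, -0.57, -0.47 and -0.07 in clusters 0, 1, 2 and 4.

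Absorptive genes in member cells showed little net difference. The 14 measured fate genes had 1 higher (7.14%) and 4 lower members (28.6%), beside 17.6% and 11.6% of all measured genes. The summed ratio of the fate list was -0.05. Hes1, the Notch target that holds back Atoh1, held 127 and 79.3 CPM (-0.68, -0.83 to -0.53). Hnf4a and Hnf4g, paired regulators of enterocyte genes, were at -0.85 and -1.13 and the vitamin D receptor Vdr at -0.88. Cdx1, a regulator of intestinal identity, was at 0.56 and Ihh, the hedgehog ligand of differentiating cells, at 0.65. Other Notch genes pointed the way Hes1 did in part: Notch1 held 47.0 and 22.1 CPM (-1.09) and the feedback gene Nrarp 30.0 and 14.8 CPM (-1.02), while 11 of the 14 measured Notch genes were within 1.5-fold and 1 was higher. At 3000 UMIs, Atoh1 and Hes1 were seen together in 16 WT and 15 KO cells, which is 22.2% and 16.3% of the cells with Atoh1, and Hes1 was seen without Atoh1 in 121 and 92 cells.

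Absorptive products were mixed as well, with 10 of 29 measured genes higher (34.5%), 6 lower (20.7%) and a median of -0.12. Over all measured genes the shares were 17.6% and 11.6%. Car1, a carbonic anhydrase of colonocytes, had 44 and 109 UMIs (1.93, 1.41 to 2.47), and 10 cells held 83.5% of the KO UMIs. Slc26a2, a sulfate transporter, held 44.7 and 102 CPM (1.19) and Cdhr5, of the brush border, 25.7 and 72.9 CPM (1.51). Scnn1b, a subunit of the sodium channel, had 13 and 47 UMIs. Guca2a held 219.9 and 45.5 CPM (-2.27) and Mep1a, a brush border protease, 15.1 and 1.43 CPM (-3.40). Markers of mature colonocytes were close to absent: Krt20 had 3 and 10 UMIs and Car4 at most 0.414 CPM. Summed over both absorptive lists the levels were 5712 and 5895 CPM, and this small excess of 0.05 in KO turned to -0.04 when mitochondrial, ribosomal-protein and haemoglobin genes were left out of the scaling.

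**Figure D4:**
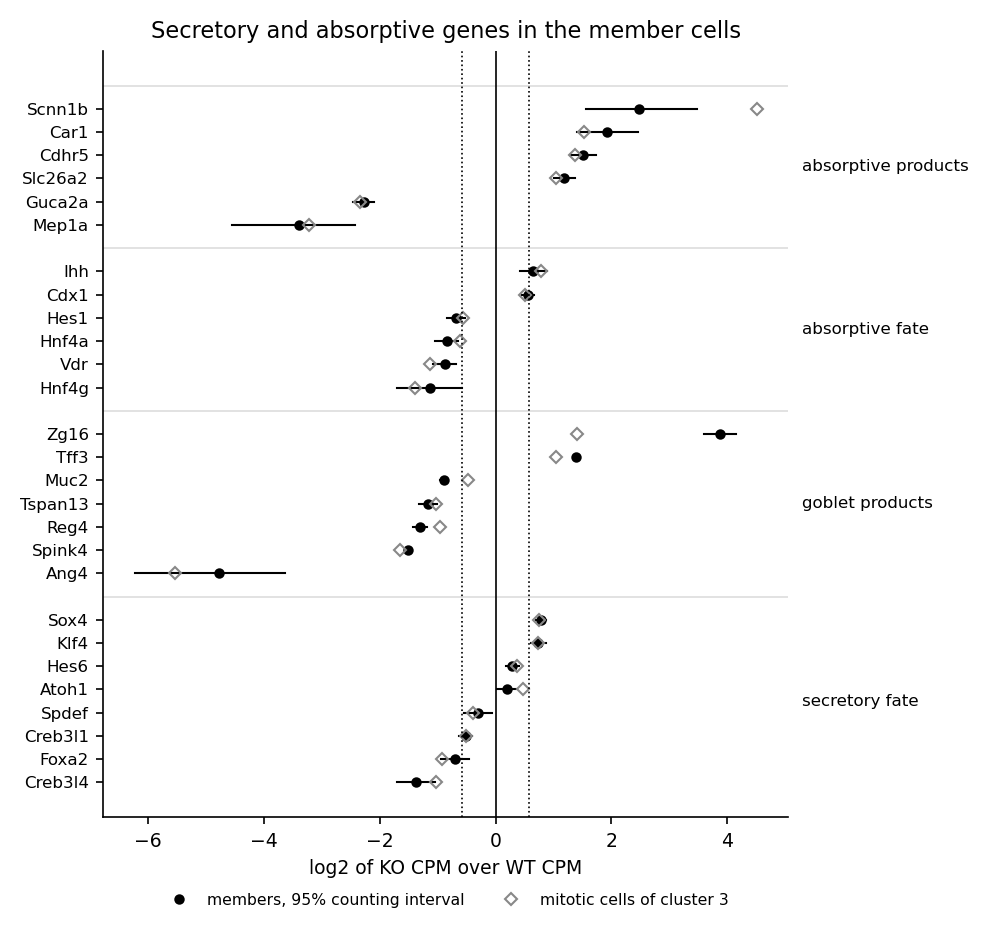
Log2 ratio of KO over WT CPM (x axis) for the named secretory and absorptive genes in member cells (black points with 95% counting intervals) and in the mitotic cells of cluster 3 (open diamonds); dotted lines mark 1.5-fold. Each list has genes on both sides of 0, from Ang4 at -4.78 to Zg16 at 3.87. Most Ang4 UMIs in WT (73.9%) and most Zg16 UMIs in KO (83.6%) came from 10 cells.

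Of 20 measured stem cell and Wnt genes, 7 were lower (35%), 1 was higher (5%) and 12 were neither, with a median of -0.44. Over all measured genes 11.6% were lower and 17.6% higher. Lgr5, a stem cell receptor for R-spondin, held 97.6 CPM in WT and 14.3 in KO (-2.77, -3.10 to -2.45), with 20.8% and 3.51% of thinned cells (unthinned 55.7% and 9.82%), beside 9.39% and 2.92% in cluster 4. Rnf43, a Wnt feedback ligase, was at -1.65, Hopx at -1.60 and Smoc2 at -1.40. Lgr5 was lower in all 3 leaning ranges, from -2.60 to -3.07.

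Genes of inflammation and of the damage response were more often higher than lower, beside 17.6% higher and 11.6% lower over all measured genes. In the NF-κB list 11 of 16 measured genes were higher and none lower (median 1.01). Nfkbia, the inhibitor that NF-κB itself induces, held 87.6 and 259 CPM (1.56), Tnf had 13 and 77 UMIs (3.19), and the chemokine Ccl20 had 42 and 288 UMIs (3.40). The NF-κB sum was 308 and 795 CPM in absorptive-leaning and 286 and 463 CPM in secretory-leaning cells. Of 20 interferon response genes 12 were higher and none lower, with Isg15 at 3.52 and Rtp4 at 5.05. Of 18 p53 targets 9 were higher and 2 lower, with Phlda3 at 3.66 and Bax, a pore-forming killer of mitochondria, at 1.60. Immediate early genes went the other way, with 11 of 16 lower and none higher (median -1.21), Fosb, part of the AP-1 factor, at 1012 and 44 UMIs among them. In ribosome biogenesis 5 of 22 genes (22.7%) were higher and none lower, with Ncl, nucleolin, at 677 and 1269 CPM. Apoptosis genes had 10 higher (38.5%) and 2 lower (7.69%) of 26. Genes of the integrated stress and unfolded protein responses had 3 higher (16.7%) and 2 lower (11.1%) of 18, near the shares of all genes. Of 17 measured m6A factors 3 were higher (17.6%) and 2 lower (11.8%), also near those shares. Mettl14 and Mettl3 were the lower ones.

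The genes at the extremes by the interval bound nearest to 0 included several of these. Highest after Ubd, a ubiquitin-like modifier induced by inflammation, were Ncf4, Slpi, Rtp4, Serpina10, Zg16, Ceacam10, Cd177, Phlda3 and Ccl20. Ubd had no UMI in WT and 576 in KO member cells, at least 295-fold higher against a floor of 3 WT counts over the group. It was seen in 197 KO cells (35.8%) and in 0 of 519 WT cells. A count of 0 allows a share of WT cells with a UMI of up to 0.578% by the floor of 3 counts, and the upper Clopper-Pearson limit is 0.708%. In cluster 4, Ubd was seen in 0.909% of WT and 33.7% of KO cells. Among the lowest were Cps1, Ang4, Fndc5, H1fx, Fosb, Folr1, Gpc3, Otc and Mptx1. For Mptx1, 10 cells held 62.6% of the WT UMIs. Cps1 and Otc, enzymes of the urea cycle, held 76.6 and 2.55 CPM and 20.8 and 0.955 CPM.

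The mitotic cells of the cluster, from the same libraries, are set beside the member cells for reference. In them 18.2% of 9776 measured genes were higher by the same rule and 12.1% lower. Origin licensing stood at -0.04 in member and 0.21 in mitotic cells, and other G2 and M phase genes at 0.06 and -0.12. The S phase sum was -0.12 in member and -0.02 in mitotic cells, and the goblet products -0.35 and -0.36. Muc2 was further below 0 in member than in mitotic cells (-0.90 and -0.48), with a difference of -0.42 (-0.54 to -0.31). Ccl20 was at 3.40 in member and 5.09 in mitotic cells, a difference of -1.69 (-2.59 to -0.78). This interval does not cover the spread between cells, and 10 member cells of each library held most of its Ccl20 UMIs.

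**Figure D5:**
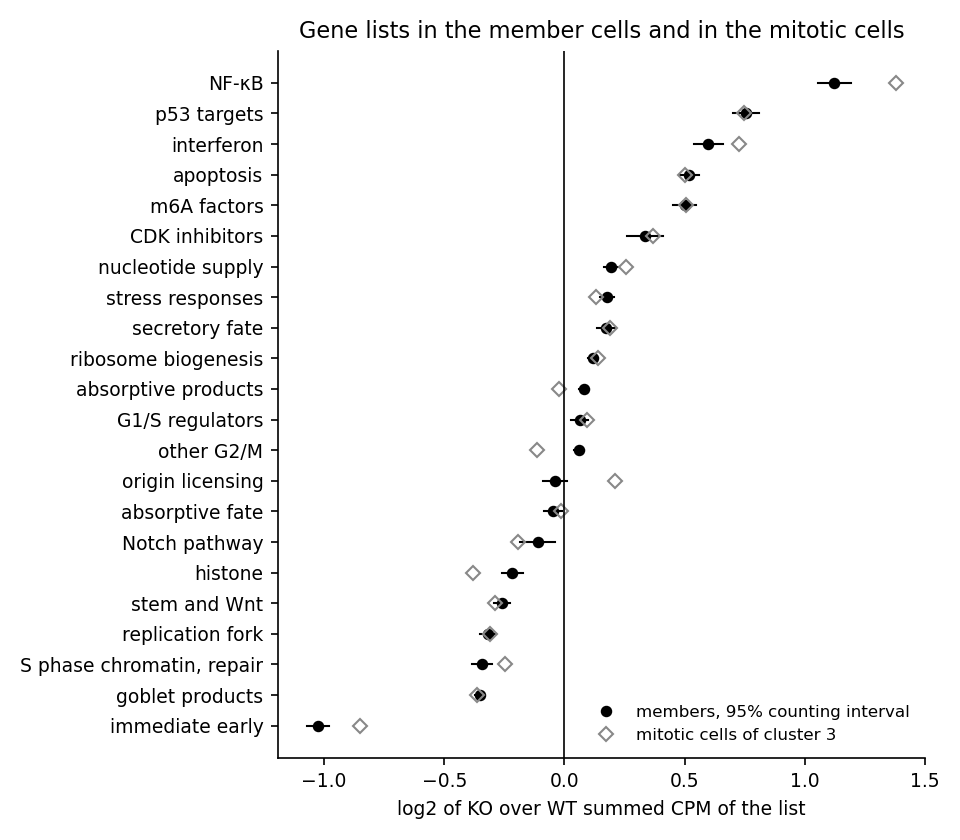
Log2 ratio of KO over WT CPM summed over each of the gene lists drawn (x axis), in member cells (black points with 95% counting intervals) and in the mitotic cells of cluster 3 (open diamonds). Among the lists drawn, which leave out markers of other cell types, NF-κB, p53 and interferon lie farthest to the right and immediate early genes farthest to the left, and replication fork genes and goblet products lie left of 0 in both.

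Markers of other cell types were low, with some differences. The 11 immune markers summed to 29.6 CPM in WT and 59.2 CPM in KO member cells, 3 of 4 measured were higher and 2 were at 0 UMIs. C1qa, a macrophage gene, had 58 and 99 UMIs, and 10 cells held 70.7% and 71.7% of them. In the mitotic cells the immune sum was 35.6 and 34.0 CPM. The 8 stromal markers summed to 2.90 and 1.59 CPM and the tuft markers to 5.69 and 6.37 CPM. Pancreatic enzyme genes summed to 120 and 139 CPM. The 6 epithelial markers stood at 4788 and 4032 CPM, with Krt18 at -1.02 and Cldn3 at 1.10. The part of immune RNA in the NF-κB and interferon values was not tested.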

How the data were processed

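The authors' deposited matrix holds UMI counts for 17829 genes in 7863 cells, and their cell table gives genotype and cluster. The submitters' processing notes name bcl2fastq, Cell Ranger and the build mm10 without versions. How cells were filtered and clustered is not given in the sources used here. Depth was 60205658 UMIs in the WT and 37635762 in the KO library.

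Counts were summed over member cells per library and divided by the total to CPM with Python 3.11.15, numpy 2.4.6, scipy 1.17.1 and pandas 2.3.3. Ratios are log2 of KO over WT CPM with exact conditional binomial intervals and shares have Clopper-Pearson intervals, both at 95%. No test was run and no p-value is given. For list and threshold rules, genes with at least 50 UMIs over both libraries were measured. Thinning drew 3000 UMIs per cell without replacement. No doublet caller was run; cells with both Xist (female) and Y-linked UMIs were left out as an alternative.

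The members and the 29 gene lists were chosen with earlier results of these data known. Named genes were the 10 highest and 10 lowest by interval bound with at least 20 CPM in a library, up to 6 per S phase, G1/S or lineage list, up to 4 per other list, and a short standing list that includes the markers; predicted genes are counted and not named. Not every gene that met these rules is described, and some are not reported here. The ratio step was tested on simulated counts. Promoter windows are RefSeq's, on GRCm38.p6. Of the alternatives tried, 16 were planned and 2 were added with the data in view (secretory-leaning or absorptive-leaning cells alone).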

Additional observations from a re-analysis of the deposited data

How the results depend on the processing

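No paired analysis was possible because each genotype has 1 library. Counts of genes at least 1.5-fold higher and lower were 3214 and 2196 without a minimum count and 753 and 453 at 2-fold; after thinning 675 were lower, and in secretory-leaning cells alone 1160 were higher. The S phase sum stayed below 0: -0.20 with mitochondrial, ribosomal-protein and haemoglobin genes left out of the scaling, -0.15 with median scaling, -0.088 with equal weight for each cell, -0.089 thinned, -0.092 in cells with at most 10% mitochondrial UMIs, -0.17 in cells with Xist alone, -0.0050 in cells with Y-linked UMIs alone and -0.41 in secretory-leaning cells. Its median was -0.14 thinned, -0.56 in secretory-leaning cells and 0.027 in cells with Y-linked UMIs alone, the only setting in which it changed sign. The secretory sum (-0.27) was -0.36, -0.30, -0.33 and -0.33 under the same scalings, equal weights and thinning, -0.36 and -0.29 at mitotic cutoffs of 0.05% and 0.2%, -0.38 without the deepest 5% of cells, -0.39 at low mitochondrial share and -0.33 and -0.25 by sex; within secretory-leaning and absorptive-leaning cells it was 0.055 and 0.21. The absorptive sum (0.05) was -0.039 with the first scaling, 0.014 with median scaling, 0.025 with equal weights, -0.0031 thinned, 0.070 at low mitochondrial share, -0.020 in cells with Y-linked UMIs alone, 0.10 in secretory-leaning and 0.070 in absorptive-leaning cells. Absorptive products alone were -0.0029 with the first scaling and -0.0031 in cells with Y-linked UMIs alone.

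Leaning shares, WT then KO, were 13.6% and 8.30% secretory-leaning and 26.7% and 22.5% absorptive-leaning at a cutoff of 2. Without the 3 most abundant genes of each lineage they were 9.09% and 10.5%, and 46.6% and 42.4%. At most 10% mitochondrial UMIs gave 36.9% secretory-leaning WT cells and 45.4% and 46.6% absorptive-leaning cells, and 5000 UMIs gave 55.8% absorptive-leaning KO cells. Other changes of sign were Atoh1 (-0.14 at a cutoff of 0.05%, -0.028 in cells with Y-linked UMIs alone, -0.076 in absorptive-leaning cells), Ccne1 (-0.17), nucleotide supply (-0.039), goblet products (0.054) and absorptive fate (0.0034) in secretory-leaning cells, and Spdef (0.77), Reg4 (1.07) and goblet products (0.090) in absorptive-leaning cells. The leaning ranges are cut on a score of the secretory and absorptive genes. Inside a range the ratios of these genes and lists, here and in the sums above, are partly set by that score. They are no check of the values over all member cells. The median over all genes was -0.049 with the first scaling, without the genes left out there, and -0.026 in secretory-leaning cells. The cause was not tested. The 2 libraries have no replicate, so no interval here covers the spread between animals. Rare transcripts such as Tnf, Car1 and Neurog3 rest on few UMIs in WT.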
